A study of Homo sapiens with 24 samples.

Results

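The effect of dimethyl fumarate (DMF) on gene expression was compared between 48 h and 24 h of treatment. The comparison is a difference of differences for each gene, the log2 ratio of DMF to control at 48 h minus the same ratio at 24 h. It rests on all libraries of these 2 times, 12 of the 24 in the series. Each of the 4 groups had 3 RNA-seq libraries of HBL-1, an immortal line grown from a human diffuse large B-cell lymphoma (DLBCL) of the activated B-cell type: 20 µM DMF for 48 h, DMSO for 48 h (control), 20 µM DMF for 24 h and DMSO for 24 h (control). DMF was dissolved in DMSO, so the solvent was shared by all groups, and all groups come from 1 cell line. The series title concerns ferroptosis and the NF-kB and STAT3 pathways.

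DMF is the dimethyl ester of fumarate, an electrophile that binds thiol groups in glutathione and in proteins. It releases NRF2, the transcription factor of antioxidant genes, from its inhibitor KEAP1. Loss of glutathione or damage to proteins is sensed by further programmes, among them ATF4, which drives genes of amino acid supply, and the heat shock and unfolded protein responses. DLBCL cells of the activated type depend on NF-kB activity and on autocrine cytokine signalling through STAT3.

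Total expected counts, the authors' estimates of reads per gene, were 28595410 to 37164079 in 11 of the 12 libraries and 2870751 in replicate 1 of DMF at 48 h. Of the 37 genes of the B cell list, 36 had over 1 CPM (counts scaled to library size), with summed levels of 12800 to 13100 CPM and 13400 to 13800 CPM in DMF and control at 48 h and 11600 to 12000 CPM and 12400 to 12600 CPM at 24 h. Of the other lineages, 1 of 13 T and NK cell markers, 1 of 12 myeloid markers and 3 of 10 epithelial and fibroblast markers had over 1 CPM. The summed T and NK cell markers were 63 to 67.6 CPM in DMF and 52.1 to 52.9 CPM in control at 48 h, against 50.6 to 58.6 CPM and 40.7 to 43.7 CPM at 24 h. Myeloid markers summed to 10.7 to 11.6 CPM in DMF and 3 to 5.05 CPM in control at 48 h, against 8.3 to 9.48 CPM and 3.26 to 4.04 CPM at 24 h. Epithelial and fibroblast markers summed to 8.01 to 10.1 CPM and 8.01 to 9.02 CPM at 48 h, against 4.65 to 5.67 CPM and 5.23 to 5.58 CPM at 24 h. CD247 and CD68, which are not restricted to T cells and macrophages, made up most of the first 2 sums, and CD3G, CD2, CD8B, CD163, FCGR3A, S100A8, S100A9, KRT19 and DCN were at 0 in all 12 libraries. None of the tested members of these 3 lists was called for the difference. Genes of ribosomal RNA took 1.29% to 1.45% of counts in DMF and 0.728% to 0.793% in control at 48 h, against 0.915% to 0.919% in DMF and 0.646% to 0.682% in control at 24 h. Effective transcript length, averaged over counts, was 3091 to 3157 bases in DMF and 2850 to 3054 bases in control at 48 h, against 2890 to 3028 bases and 3088 to 3099 bases at 24 h. Both measures moved with the difference of effects, and the part of ribosomal RNA in the results was not tested. The count after removal of a length trend is given below.

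The effect of DMF was not the same at the 2 times for a large share of genes. Tested with edgeR's quasi-likelihood method and adjusted by Benjamini-Hochberg, 5030 of 13186 genes tested (38.1%) differed in their response at an adjusted p under 0.05. The difference was positive for 2713 genes (20.6%) and negative for 2317 (17.6%), and 196 and 256 of these changed at least 2-fold. DMF itself changed 8302 genes (63%) at 48 h, 33.3% of those tested higher and 29.6% lower, and 7312 (55.5%) at 24 h, 27.7% higher and 27.8% lower. At least 2-fold effects numbered 712 higher and 705 lower at 48 h, against 462 higher and 353 lower at 24 h. These p-values measure only the spread between libraries labelled as replicates, which may be technical, as no label ties them to separate cultures. With a trend on transcript length removed from each library, 2840 genes were higher and 2315 lower, and 4103 of the 5030 calls were still made in the same direction. With upper quartile scaling 43.6% of the calls were positive, against 53.9% with TMM, and on TPM 86.0% were. With the other 12 libraries of the series in the same fit, 222 genes were called higher and 197 lower, and the common dispersion was 0.0521 in place of 0.0029. When only the replicate 3 libraries of 12 h were left out of that fit, 2890 were higher and 2715 lower.

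Growing effects outnumbered fading ones. An effect was said to grow if it was called at 48 h, was larger in size there than at 24 h and was not called in the opposite direction at 24 h. Of the 5030 genes, 1674 (33.3%) had a rise that grew and 1433 (28.5%) a fall that grew. At 24 h an effect was called for only 703 of these growing rises and 643 of these growing falls. The others were called at 48 h and not at 24 h. An effect faded if it was called at 24 h, was smaller in size at 48 h and was not called in the opposite direction there, which held for 599 rises (11.9%) and 665 falls (13.2%). Reversal, a call at both times in opposite directions, was found for 333 genes that were higher with DMF at 48 h and lower at 24 h (6.62%) and for 247 that were lower at 48 h and higher at 24 h (4.91%). The remaining 79 genes met none of these definitions. The median transcript was 3600 bases in growing rises and 2340 bases in growing falls, 4390 and 1800 bases in reversals to a rise and to a fall, and 2930 bases in all genes tested.

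**Figure D1:**
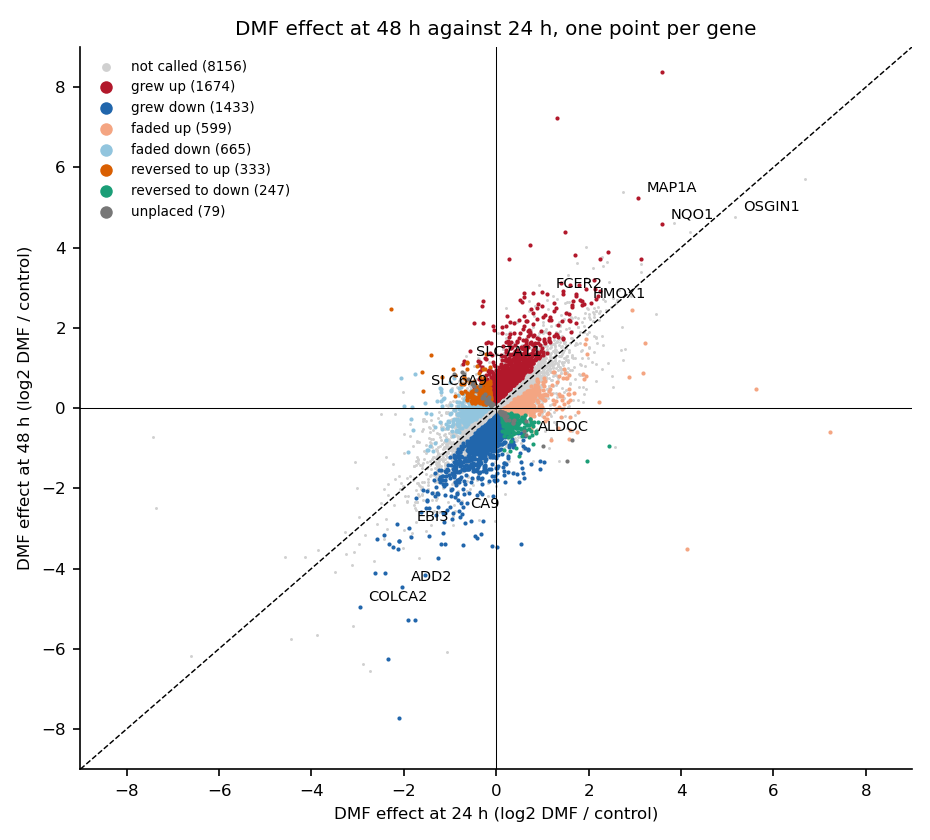
DMF effect at 48 h (vertical axis, log2 of DMF over control) against the effect at 24 h (horizontal axis, same unit), 1 point for each of 13186 genes, coloured by class, with equal effects on the dashed line. Red and dark blue points (1674 and 1433 genes) lie farther from zero at 48 h, pale points (599 and 665) lie nearer to it, and orange and green points (333 and 247) changed sign.

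In the scatter of the effects at both times, MAP1A, NQO1 and OSGIN1 lie at the top right with a rise at both times, and COLCA2 and ADD2 at the bottom left with a fall at both.

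Levels in DMF-treated cells moved less often than levels in control cells. Of the 5030 genes, 661 (13.1%) changed between the times in DMF only, 2308 (45.9%) in control only, 1489 in both in the same direction, 481 in both in opposite directions and 91 in neither by the test. The control change was the larger in 3976 (79.0%), against 67.1% of all genes tested. The median size of the change between the times was 0.202 in DMF and 0.464 in control (log2) for the called genes, against 0.214 and 0.333 for all genes tested. Among the 1674 growing rises the DMF level rose in 409 and fell in 518, and the control level fell in 1373. Among the 1433 growing falls the DMF level rose in 281 and fell in 453, and the control level rose in 1174. Reversals to a rise had a control level that fell in 313 of 333, and reversals to a fall had a control level that rose in 236 of 247. In fading effects the control level moved toward the DMF level, up in 506 of 599 faded rises and down in 514 of 665 faded falls. Over all genes tested the control level rose in 32.4% and fell in 31.8%, and the DMF level in 21.8% and 22.4%. The difference that forms the classes contains the control and DMF changes, so their directions within a class are partly set by the selection. Of the 452 genes with a difference of at least 2-fold, 51 changed in DMF only and 249 in control only. Over all genes tested, 44.2% changed with time in DMF and 64.2% in control. By at least 2-fold, 303 genes were higher and 34 lower at 48 h than at 24 h in DMF, and 855 and 323 in control. In bulk RNA, fewer cells that express a gene and less of its RNA per cell cannot be told apart.

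**Figure D2:**
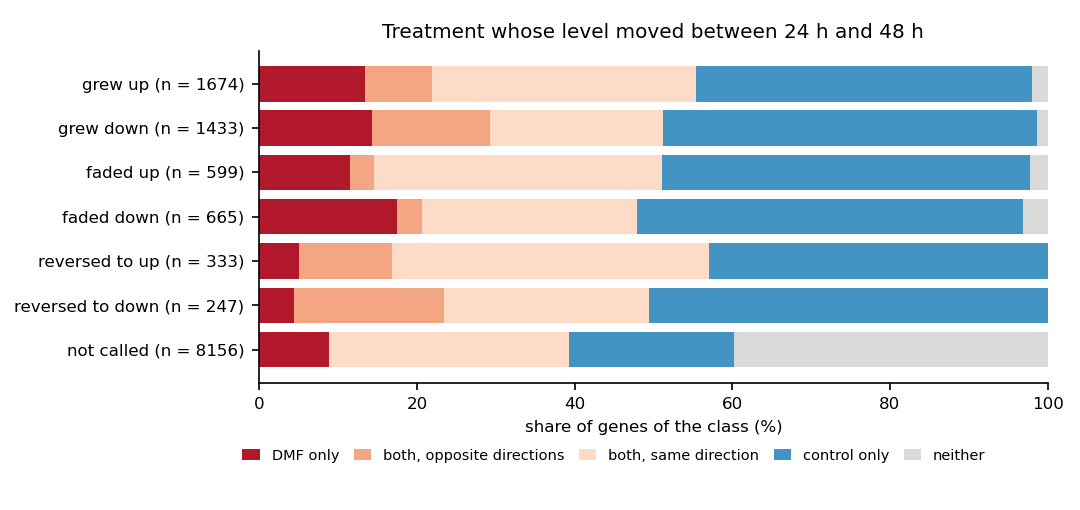
Share of genes (horizontal axis, %) in each class of the difference, split by whose level changed between 24 h and 48 h: DMF only, both in opposite or the same direction, control only, or neither. Control only is the widest bar in each of the 6 called classes, from 42.6% of growing rises to 50.6% of reversals to a fall.

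In the bars by class, DMF-only changes made up 17.4% of faded falls, the largest share of the 6 classes of growth, fading and reversal, and 4.45% of reversals to a fall, the smallest. Genes that were not called had no level change by the test in 3243 of 8156.

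Among targets of ATF4, reversal to a rise was the most frequent class. ATF4 is a transcription factor that is translated when amino acids are short or when heme or protein folding is disturbed, and it drives genes for amino acid synthesis, amino acid import and the charging of transfer RNA. Of 42 tested targets, 31 had a positive difference and 5 a negative difference, where 20.6% and 17.6% of all genes tested did. In 15 of them DMF gave a rise at 48 h and a fall at 24 h, in 10 a fall faded and in 6 a rise grew, classes that held 2.53%, 5.04% and 12.7% of all genes tested. The median effect of the list was 0.145 at 48 h and -0.532 at 24 h, against 0.0294 and 0.000846 over all genes tested. The median change between the times was -0.101 in DMF and -0.57 in control, and DMF levels fell for 19 of the 42 targets and rose for 5, against 22.4% and 21.8% of all genes tested. Control levels fell for 33 and rose for 4, against 31.8% and 32.4%.

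WARS, which encodes tryptophanyl-tRNA synthetase, had 128, 124 and 119.7 CPM in DMF and 86.1, 82.3 and 76.1 CPM in control at 48 h, and 124, 128 and 132 CPM in DMF and 219, 215 and 215 CPM in control at 24 h. The DMF libraries of both times lay close together, between the low controls of 48 h and the high controls of 24 h, and no DMF library overlapped a control of its own time. The effect was 0.60 ± 0.05 at 48 h and -0.76 ± 0.05 at 24 h (log2 ± SE), a difference of 1.36 ± 0.07 (adjusted p = 1.71e-09). GARS and MARS, the genes of glycyl- and methionyl-tRNA synthetase, reversed in the same way, with differences of 1.11 ± 0.07 and 1.35 ± 0.08.

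PSAT1, the second enzyme of serine synthesis (GRCh38 chr9:78297143-78330093), had 119.7, 118 and 114 CPM in DMF and 115, 117 and 108 CPM in control at 48 h, and 159, 152 and 160.1 CPM in DMF and 351, 348 and 363 CPM in control at 24 h. Its DMF and control libraries overlapped at 48 h and were far apart at 24 h, with an effect of 0.05 ± 0.05 at 48 h and a fall of -1.17 ± 0.05 at 24 h. The difference was 1.22 ± 0.07 (adjusted p = 1.71e-09), with a change of -0.42 in DMF and -1.65 in control. PSPH, the phosphatase of the last step of serine synthesis, reversed, with an effect of 0.77 ± 0.09 at 48 h and -0.69 ± 0.07 at 24 h. ALDH1L2, an enzyme of mitochondrial folate metabolism, had a fall that faded, -0.54 ± 0.12 at 48 h and -1.8 ± 0.11 at 24 h.

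Carriers that bring amino acids into the cell reversed as well. SLC7A11, the cystine carrier that feeds glutathione synthesis (GRCh38 chr4:138164097-138242349), had 11, 8.4 and 8.88 CPM in DMF and 4.49, 3.57 and 4.0 CPM in control at 48 h, and 6.05, 6.32 and 5.46 CPM in DMF and 8.96, 9.41 and 9.15 CPM in control at 24 h. DMF libraries were the higher at 48 h and the lower at 24 h, with no overlap at either time. The effect was 1.14 ± 0.11 at 48 h and -0.62 ± 0.10 at 24 h, a difference of 1.77 ± 0.15 (adjusted p = 1.86e-07), and both treatments contributed, DMF with 0.57 and control with -1.19. SLC7A5, the carrier of large neutral amino acids, had a change of 0.04 in DMF that was not called (adjusted p = 0.492) and fell by 1.09 in control on the log2 scale, which gave a difference of 1.13 ± 0.06. SLC6A9, a glycine carrier, had the largest difference among the genes named for a reversal, 2.01 ± 0.19, with 3.67, 4.18 and 2.88 CPM in DMF and 3.1, 2.28 and 2.6 CPM in control at 48 h, where the libraries overlapped.

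SESN2, a sestrin that restrains mTORC1, had 47.4, 45.2 and 44.2 CPM in DMF and 28.4, 29.8 and 27.4 CPM in control at 48 h, and 50.2, 50.8 and 49.4 CPM in DMF and 76.3, 71.6 and 74.2 CPM in control at 24 h. The DMF level changed by -0.15 between the times and the control level by -1.38, so that DMF libraries lay above the controls at 48 h and below them at 24 h. The difference was 1.22 ± 0.07 (adjusted p = 3.26e-09). CHAC1, an enzyme that degrades glutathione (GRCh38 chr15:40952962-40956519), fell in both treatments, to 2.0, 3.65 and 2.55 CPM in DMF and 1.5, 1.39 and 1.77 CPM in control at 48 h, against 5.91, 5.34 and 5.72 CPM and 11.6, 9.77 and 10.9 CPM at 24 h. The change was -0.89 ± 0.15 in DMF and -2.78 ± 0.14 in control, and the difference was 1.89 ± 0.21 (adjusted p = 2.98e-06).

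Members of the list did not all move this way. ATF4 itself had 259, 271 and 256 CPM in DMF and 310.3, 333 and 295 CPM in control at 48 h, and 322, 295 and 305 CPM in DMF and 419, 419 and 435 CPM in control at 24 h, a fall at both times that was smaller at 48 h, with a difference of 0.21 ± 0.07 (adjusted p = 0.0245). This call was lost without each of 5 libraries in turn, which were replicate 2 of DMF at 48 h, replicate 3 of control at 48 h, replicates 2 and 3 of DMF at 24 h and replicate 3 of control at 24 h, with adjusted p-values of 0.0534 to 0.079. DDIT3, the stress factor CHOP, had a rise that faded, with an effect of -0.19 ± 0.08 at 48 h and 0.82 ± 0.08 at 24 h. TRIB3, a pseudokinase that restrains ATF4, had a difference of 0.11 ± 0.07 (adjusted p = 0.211), which was not called.

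The element that ATF4 binds with a C/EBP partner was looked up in RefSeq promoters (GRCh38.p14), from 250 bases before to 50 bases after each gene's start. The letters TGATGNAA, on either strand, were found in 10 of 37 promoters of the list that had an entry (27.0%), against 174 of 10009 promoters of genes tested (1.74%). CHAC1 and MARS (RefSeq symbol MARS1) are shown because they reversed and hold 1 match each. The promoter of CHAC1 is chr15:40953221-40953520 on the + strand, with the match in capitals beginning at position -209 from the start. That of MARS1 is chr12:57487818-57488117 on the + strand, with the match beginning at position -4. In both, the capitals read TTGCATCA, the motif on the opposite strand. Both windows run 5′ to 3′ on the strand of the gene.
CHAC1: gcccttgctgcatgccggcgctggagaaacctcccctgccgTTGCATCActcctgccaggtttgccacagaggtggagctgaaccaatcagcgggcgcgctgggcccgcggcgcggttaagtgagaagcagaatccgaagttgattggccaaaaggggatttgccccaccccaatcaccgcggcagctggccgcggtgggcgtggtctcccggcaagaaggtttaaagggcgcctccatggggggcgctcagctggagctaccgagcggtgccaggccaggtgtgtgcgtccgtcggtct
MARS1: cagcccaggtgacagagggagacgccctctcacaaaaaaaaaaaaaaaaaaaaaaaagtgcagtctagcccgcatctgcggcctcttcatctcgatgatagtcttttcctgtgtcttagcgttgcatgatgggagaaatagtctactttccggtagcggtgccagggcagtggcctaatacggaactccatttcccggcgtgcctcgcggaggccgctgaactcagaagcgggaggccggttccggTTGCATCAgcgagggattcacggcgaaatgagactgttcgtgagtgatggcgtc
The same letters were absent from the windows of PSAT1, SESN2, SLC7A5, SLC6A9, WARS and GARS, which says only that they are not within these bases. Promoters of genes that reversed to a rise held them in 5 of 256 (1.95%).

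**Figure D3:**
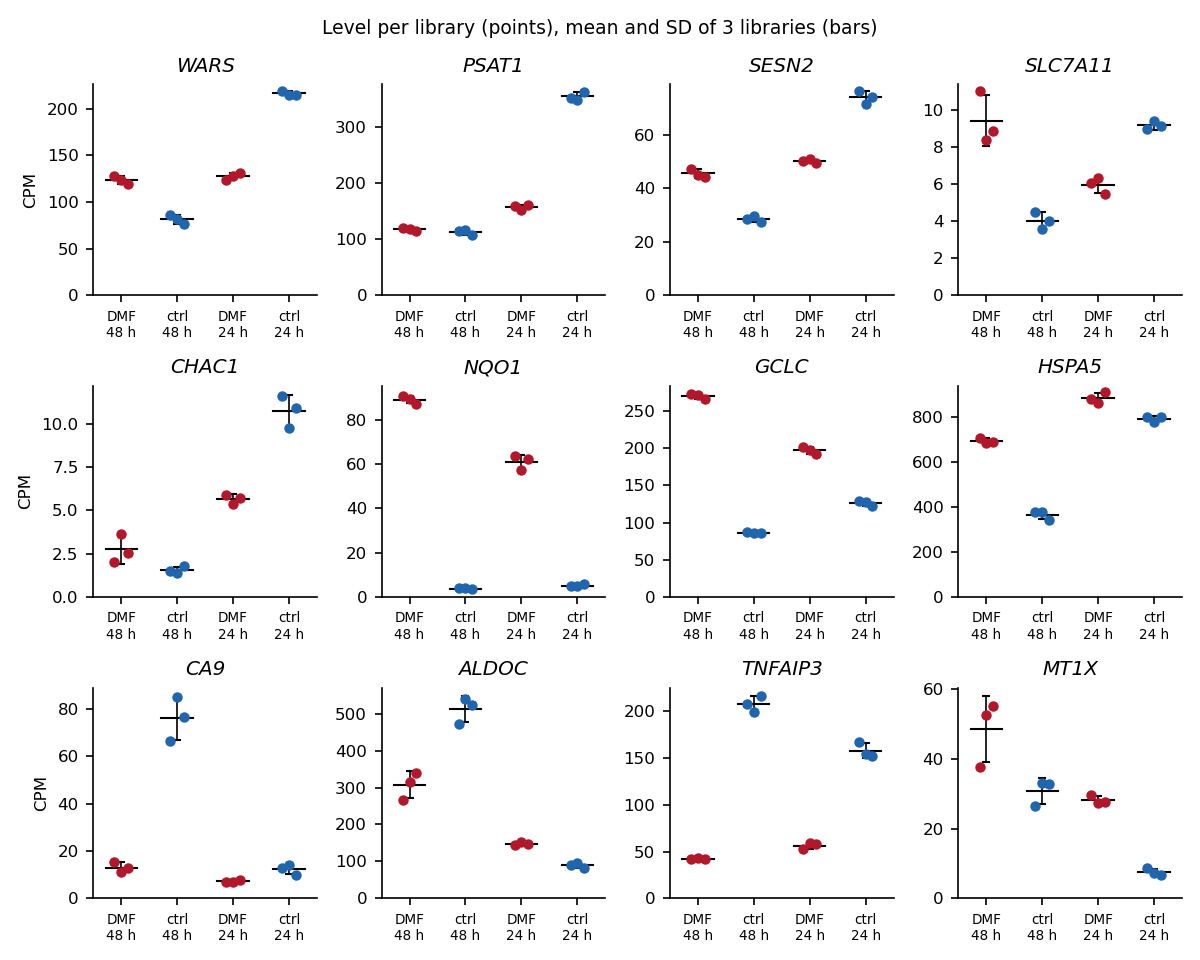
Levels of 12 genes (vertical axes, CPM after TMM scaling) in DMF (red) and control (blue, ctrl) at 48 h and 24 h, with 1 point per library and bars for the mean and SD of 3 libraries. For WARS, PSAT1 and SESN2 the control level dropped between the times while DMF stayed nearer in place, and for CA9 and ALDOC the control level rose most.

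The plot of levels per library shows the 3 patterns side by side. In WARS the DMF groups averaged 124 ± 4.35 CPM at 48 h and 128 ± 3.72 CPM at 24 h, and the controls 81.5 ± 5.07 CPM and 217 ± 2.11 CPM (mean ± SD, n = 3 each). In CA9 the DMF groups averaged 13 ± 2.19 and 7.29 ± 0.412 CPM and the controls 75.9 ± 9.16 and 12.2 ± 2.05 CPM.

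Genes of ribosome production split in 2 directions. Of 35 tested genes of a list of MYC and ribosome biogenesis, 18 had a positive difference and 6 a negative difference, against 20.6% and 17.6% of all genes tested. Among them 9 reversed to a rise, where 2.53% of all genes tested did. Their medians fell with time in both treatments, by 0.416 in DMF and by 0.593 in control (log2). UTP20, a component of the small subunit processome, had 64, 69.6 and 63.4 CPM in DMF and 46.8, 37.8 and 39.8 CPM in control at 48 h, and 100.4, 111 and 108 CPM in DMF and 149, 138 and 156 CPM in control at 24 h. DMF libraries lay above the controls at 48 h and below them at 24 h without overlap, a difference of 1.15 ± 0.10 (adjusted p = 3.01e-07). NOP2, a methyltransferase of ribosomal RNA, had a rise of 0.69 ± 0.05 at 48 h and no call at 24 h (-0.04, adjusted p = 0.501). MYC itself went the other way, with a fall of -1.02 ± 0.05 at 48 h and -0.73 ± 0.05 at 24 h, a difference of -0.29 ± 0.07.

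Genes of the ribosomal proteins, by contrast, were mostly in the class of growing falls. Of 84 tested, 80 had a negative difference and 1 a positive difference, 70 were growing falls and 8 reversals to a fall. Over all genes tested these shares were 17.6%, 20.6%, 10.9% and 1.87%. This group was picked by symbol after the shares of counts were seen. Their median effect was -0.612 at 48 h and -0.00697 at 24 h, with a change between the times of -0.235 in DMF and 0.374 in control. Together they took 8.88% to 9.12% of counts in DMF and 12.5% to 14.1% in control at 48 h, against 9.83% to 10.6% in DMF and 9.98% to 10.1% in control at 24 h. The controls of 48 h were the highest of the 4 groups and the DMF libraries of 48 h the lowest. These genes have many near-identical pseudogenes, so how reads were divided among copies is uncertain. With the length trend removed, 74 were lower and 3 higher, with a median difference of -0.4 in place of -0.627. The median effect was then -0.624 at 48 h and -0.263 at 24 h, so its size at 24 h depends on this setting. Without replicate 2 of control at 48 h, the library at 14.1%, 80 were lower and 3 higher.

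Of 38 tested targets of NRF2, 31 were higher with DMF at 48 h and 29 at 24 h, against 33.3% and 27.7% of all genes tested, and 5 and 4 were lower. The difference was positive for 17 and negative for 3, against 20.6% and 17.6% of all genes tested, and in 16 a rise grew. The median effect was 0.969 at 48 h and 0.652 at 24 h. DMF levels rose with time in 20 and fell in 3, and control levels rose in 12 and fell in 15.

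NQO1, a quinone reductase (GRCh38 chr16:69706996-69726951), had 90.7, 89.2 and 87.2 CPM in DMF and 3.78, 4.05 and 3.31 CPM in control at 48 h, and 63.4, 57.4 and 62 CPM in DMF and 4.76, 4.66 and 5.83 CPM in control at 24 h. The DMF libraries stood far above the controls at both times and higher at 48 h than at 24 h. Its effect was 4.58 ± 0.08 at 48 h and 3.58 ± 0.08 at 24 h, a difference of 1.0 ± 0.13 (adjusted p = 8.35e-06). HMOX1, the heme oxygenase that frees iron from heme, had 206, 225 and 218 CPM in DMF and 34.6, 37.8 and 35.3 CPM in control at 48 h, and 108, 101 and 102 CPM in DMF and 27.8, 29.1 and 26.4 CPM in control at 24 h. Both treatments were higher at 48 h, DMF by 1.07 ± 0.05 and control by 0.37 ± 0.06, which left a difference of 0.70 ± 0.08 (adjusted p = 2.52e-06). TXNRD1, thioredoxin reductase, and SRXN1, sulfiredoxin, had differences of 0.54 ± 0.06 and 0.76 ± 0.09. OSGIN1, an oxidative stress response gene, rose by 4.75 ± 0.12 at 48 h and by 5.17 ± 0.15 at 24 h, and its difference of -0.42 ± 0.26 was not called (adjusted p = 0.251). Its sign depends on the scaling, as the difference was 0.62 on log2(TPM + 1).

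GCLC and GCLM, which make glutathione, differed in direction from GPX4, which uses it, but CHAC1, which degrades it, had a positive difference (1.89). GCLC, the catalytic subunit of the first enzyme of glutathione synthesis, had 274, 272 and 266 CPM in DMF and 87.8, 85.8 and 86.1 CPM in control at 48 h, and 202, 197 and 192 CPM in DMF and 129.6, 128 and 122 CPM in control at 24 h. DMF rose by 0.45 and control fell by 0.55 between the times on the log2 scale, with no overlap of treatments at either time, and the difference was 1.0 ± 0.06 (adjusted p = 3.92e-09). GCLM, its regulatory subunit, had a difference of 0.76 ± 0.09. GPX4, the peroxidase that uses glutathione to remove lipid peroxides and holds back ferroptosis, had 138, 131 and 139 CPM in DMF and 197, 220.5 and 191 CPM in control at 48 h, and 139, 128 and 131 CPM in DMF and 141, 137 and 139.5 CPM in control at 24 h. Only the controls of 48 h lay apart from the other groups, with a fall of -0.58 ± 0.06 at 48 h and an effect of -0.07 ± 0.05 at 24 h (adjusted p = 0.28), a difference of -0.51 ± 0.08 (adjusted p = 5.36e-05). Of 35 ferroptosis-related genes tested, 12 had a positive difference and 9 a negative difference, with a median of 0.0618, and of 27 genes of glutathione and peroxidases 7 and 6. Over all genes tested the shares were 20.6% and 17.6%.

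Of 31 genes of iron and heme handling, 5 had a positive difference and 5 a negative difference, a share no higher than the 20.6% and 17.6% of all genes tested. FTL, the ferritin light chain that stores iron, rose by 2.69 ± 0.06 at 48 h and by 2.61 ± 0.06 at 24 h, a difference of 0.08 ± 0.08 (adjusted p = 0.427), although its pseudogenes make the count uncertain. TFRC, the transferrin receptor, had a difference of -0.04 ± 0.09 (adjusted p = 0.73). ALOX5, a lipoxygenase, had a fall that grew, -1.79 ± 0.09 at 48 h and -1.35 ± 0.08 at 24 h.

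Chaperones had rises that grew as well. Of 24 heat shock genes, 13 had a positive and 1 a negative difference, against 20.6% and 17.6% of all genes tested, and all 13 were growing rises. The median effect was 0.651 at 48 h and 0.175 at 24 h, and the median change between the times was -0.218 in DMF and -0.594 in control. HSP90AA1, the inducible HSP90, had 1176, 1250.0 and 1189 CPM in DMF and 614, 612 and 547 CPM in control at 48 h, and 1439, 1403 and 1359 CPM in DMF and 1205, 1189 and 1206 CPM in control at 24 h. DMF exceeded control in every library at both times, and the control level dropped by far the more. The difference was 0.81 ± 0.07 (adjusted p = 1.84e-07). DNAJA1 and HSPH1, co-chaperones of HSP70, had differences of 0.75 ± 0.09 and 0.70 ± 0.07. HSPA1B, an inducible HSP70 that shares near-identical transcripts with HSPA1A, had a difference of 0.70 ± 0.11 (adjusted p = 5.87e-05).

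In the stress response to unfolded proteins in the endoplasmic reticulum, 15 of 26 genes had a positive difference, all of them growing rises, and 1 a negative difference. Over all genes tested the shares were 20.6% and 17.6%. HSPA5, the chaperone BiP (GRCh38 chr9:125234853-125241330), had 708, 684 and 688 CPM in DMF and 377, 376 and 343 CPM in control at 48 h, and 880.1, 866 and 911 CPM in DMF and 803, 780.3 and 799 CPM in control at 24 h. DMF libraries were the higher at both times without overlap, by 0.92 ± 0.05 at 48 h and 0.16 ± 0.04 at 24 h. The level dropped in both treatments, by less in DMF (-0.35) than in control (-1.12), and the difference was 0.77 ± 0.06 (adjusted p = 1.55e-07). HYOU1, another chaperone of this compartment, had a difference of 0.83 ± 0.06, and CALR, calreticulin, one of 0.58 ± 0.07.

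Genes of protein disposal had counts nearer to those of all genes tested, where 20.6% had a positive and 17.6% a negative difference. All but 1 of 32 proteasome subunits fell with time in each treatment, against 22.4% of all genes tested in DMF and 31.8% in control. Of the 32, 9 had a positive difference and 4 a negative difference. PSMD1, a subunit of the regulatory particle, had 169.7, 167 and 156 CPM in DMF and 96.2, 91.8 and 76.3 CPM in control at 48 h, and 248, 239.8 and 242 CPM in DMF and 227, 221 and 231 CPM in control at 24 h. Controls were lowest at 48 h, below all other libraries, and the difference was 0.79 ± 0.09 (adjusted p = 3.91e-06). Of 44 genes of autophagy and the lysosome, 13 had a positive difference and 6 a negative difference, and all 13 were growing rises, although with upper quartile scaling 7 were positive and 7 negative. The growing rises included LAMP1, a lysosomal membrane protein (0.63 ± 0.06), and ATP6V0D1, a subunit of the proton pump (0.68 ± 0.09).

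Glycolytic and hypoxia-induced genes went the opposite way. Of 36 tested, 23 had a negative difference and 2 a positive difference, against 17.6% and 20.6% of all genes tested. There were 12 growing falls, 6 faded rises and 4 reversals to a fall, against 10.9%, 4.54% and 1.87% of all genes tested. On TPM 12 were lower and 8 higher, with a median difference of -0.0335. Levels rose with time in DMF for 29 and in control for 34 of the genes, against 21.8% and 32.4% of all genes tested. The median changes were 0.416 in DMF and 0.739 in control. The median effect was -0.268 at 48 h and -0.0418 at 24 h.

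CA9, carbonic anhydrase IX, a marker of hypoxia (GRCh38 chr9:35673856-35681159), had 15.3, 11 and 12.6 CPM in DMF and 66.5, 84.8 and 76.4 CPM in control at 48 h, and 7.09, 7.02 and 7.76 CPM in DMF and 12.9, 13.9 and 9.96 CPM in control at 24 h. The controls of 48 h stood above all other libraries. The fall was -2.65 ± 0.12 at 48 h and -0.75 ± 0.12 at 24 h, a difference of -1.9 ± 0.17 (adjusted p = 3.07e-07). HILPDA, a lipid droplet protein induced by hypoxia, and SLC2A3, a glucose carrier, had differences of -1.92 ± 0.16 and -1.75 ± 0.28. ALDOC, an aldolase, had 267, 316 and 338 CPM in DMF and 472, 541 and 524 CPM in control at 48 h, and 145, 152 and 148 CPM in DMF and 90.9, 96.7 and 82.6 CPM in control at 24 h. The level was higher at 48 h in both treatments, by 1.07 in DMF and 2.51 in control. DMF libraries were the lower at 48 h and the higher at 24 h without overlap, with effects of -0.72 ± 0.07 and 0.72 ± 0.07 and a difference of -1.44 ± 0.10 (adjusted p = 2.68e-08). PGK1, phosphoglycerate kinase, reversed too, by -0.69 ± 0.06, and PFKFB4, which raises flux through glycolysis, had a fall that grew (-1.08 ± 0.14).

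The core letters of the hypoxia response element, ACGTG on either strand, were in 14 of 32 promoters of this list (43.8%) and in 2670 of 10009 promoters of genes tested (26.7%). The promoter of CA9 is shown because the gene is a marker of hypoxia with a large difference and a single match. It is chr9:35673678-35673977 on the + strand (GRCh38.p14, RefSeq), with its 1 match, CACGT on this strand, in capitals at position -18.
CA9: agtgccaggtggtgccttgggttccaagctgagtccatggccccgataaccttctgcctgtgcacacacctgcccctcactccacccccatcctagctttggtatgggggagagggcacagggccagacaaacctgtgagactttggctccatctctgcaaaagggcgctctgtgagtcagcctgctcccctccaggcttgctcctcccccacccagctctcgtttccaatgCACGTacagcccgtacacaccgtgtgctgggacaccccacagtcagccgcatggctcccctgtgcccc
The match is a description of the letters in this window.

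Sterol synthesis genes had 13 of 27 members with a negative difference and 2 with a positive difference, against 17.6% and 20.6% of all genes tested. On TPM 4 were lower and 5 higher. Levels rose with time in both treatments, for 20 of 27 in DMF and 23 of 27 in control, against 21.8% and 32.4% of all genes tested. FDPS, farnesyl diphosphate synthase, had 132, 125 and 133 CPM in DMF and 252, 278 and 244 CPM in control at 48 h, and 127, 114 and 122.7 CPM in DMF and 138, 135 and 143 CPM in control at 24 h. Its controls of 48 h stood above the rest, and the difference was -0.80 ± 0.08 (adjusted p = 8.61e-07). INSIG2, a sterol sensor that retains the SREBP complex, had a difference of -0.81 ± 0.09. ABCG1, a cholesterol exporter outside this list, had a growing rise, with an effect of 2.55 ± 0.17 at 48 h and 0.98 ± 0.15 at 24 h.

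Growing falls were the most frequent class among targets of NF-kB. Of 41 tested, 16 had a negative difference and 3 a positive difference, against 17.6% and 20.6% of all genes tested. Growing falls numbered 14, a class that held 10.9% of all genes tested. On TPM 12 were lower and 15 higher. The median effect was -0.667 at 48 h and -0.513 at 24 h, and the control level rose with time for 20, against 32.4% of all genes tested. TNFAIP3, the feedback inhibitor A20 (GRCh38 chr6:137867188-137883312), had 41.7, 42.7 and 42 CPM in DMF and 207, 199.5 and 216 CPM in control at 48 h, and 52.3, 58.6 and 57.8 CPM in DMF and 167, 154 and 152 CPM in control at 24 h. DMF libraries were far below the controls at both times, lowest at 48 h, when the controls were highest. The fall was -2.3 ± 0.06 at 48 h and -1.49 ± 0.05 at 24 h, a difference of -0.81 ± 0.08 (adjusted p = 8.61e-07).

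NFKB2 and RELB, the subunits of the alternative NF-kB pathway, had differences of -0.82 ± 0.07 and -0.76 ± 0.08, and BIRC3, an inhibitor of cell death, -0.82 ± 0.07. EBI3, a subunit of interleukins 27 and 35, had 14, 17.2 and 17.9 CPM in DMF and 127, 148 and 134 CPM in control at 48 h, and 18.8, 18.7 and 19.1 CPM in DMF and 71.1, 69 and 70.7 CPM in control at 24 h. The DMF level did not change by the test (-0.13, adjusted p = 0.152) and the control level rose by 0.95 ± 0.06. NFKBIA, the inhibitor IkB-alpha, and CD40, a receptor upstream of NF-kB, differed from these in that the DMF level fell the more, by 0.94 and 0.57 on the log2 scale, with control changes of -0.31 and 0.12. ICAM1, an adhesion molecule, had a fall of -0.96 ± 0.07 at 48 h and -1.04 ± 0.06 at 24 h and a difference of 0.09 ± 0.09 (adjusted p = 0.485).

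The chemokine genes CCL3 and CCL4 rose with DMF instead. CCL4 had 22.3, 21.7 and 23.1 CPM in DMF and 1.53, 1.58 and 1.94 CPM in control at 48 h, and 12, 12.7 and 13.4 CPM in DMF and 1.48, 1.18 and 1.71 CPM in control at 24 h, with a difference of 0.59 ± 0.19 (adjusted p = 0.0175), a call that was lost without replicate 3 of control at 24 h. CCL3 had a difference of 0.45 ± 0.23 (adjusted p = 0.129), which was not called. Both have near-identical copies, which makes their counts uncertain. CCL22, a chemokine that attracts T cells, had a fall of -3.17 ± 0.09 at 48 h and -2.42 ± 0.09 at 24 h.

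Of 28 targets of STAT3, 10 had a negative difference and 4 a positive difference, against 17.6% and 20.6% of all genes tested. On TPM 6 were lower and 8 higher. PIM1 and PIM2, survival kinases induced by STAT3, had differences of -0.62 ± 0.06 and -0.42 ± 0.06. In PIM1 the DMF level did not change by the test between the times (adjusted p = 0.591), and the control level rose by 0.59 ± 0.04. IL10, the cytokine that feeds autocrine STAT3 activity, had 6.0, 5.48 and 5.11 CPM in DMF and 17.6, 17.1 and 17 CPM in control at 48 h, and 4.61, 5.04 and 5.67 CPM in DMF and 12, 11.3 and 11.4 CPM in control at 24 h, a fall that grew by -0.51 ± 0.13 (adjusted p = 0.00439). SOCS3, the feedback inhibitor of STAT3, had a fall of -2.78 ± 0.12 at 48 h, against -2.39 ± 0.11 at 24 h, and its difference of -0.39 ± 0.17 was not called (adjusted p = 0.0882). STAT3 itself had a small fall that faded (0.27 ± 0.07), with a DMF level that rose by 0.35.

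Of 18 genes of MHC class I and the immunoproteasome, 10 had a negative difference and 3 a positive difference, against 17.6% and 20.6% of all genes tested. The median was -0.412. TAP1, the peptide transporter, and PSMB8, an immunoproteasome subunit, had differences of -0.70 ± 0.08 and -0.68 ± 0.10. HLA-B, a class I heavy chain, had a difference of -0.70 ± 0.09, with the reservation that reads of HLA genes are hard to assign. Of the 37 B cell genes, 11 had a negative difference and 7 a positive difference, where 17.6% and 20.6% of all genes tested did. On TPM 4 were lower and 15 higher. CD22, an inhibitory co-receptor of the B cell receptor, had a fall of -1.58 ± 0.06 at 48 h and -0.86 ± 0.06 at 24 h. MS4A1, the gene of CD20, rose instead, by 0.74 ± 0.05 at 48 h and 0.14 ± 0.05 at 24 h. FCER2, the low-affinity IgE receptor CD23, had 34.4, 30.6 and 31.6 CPM in DMF and 4.17, 4.65 and 4.45 CPM in control at 48 h, and 20.8, 22.7 and 21 CPM in DMF and 8.53, 10.7 and 10.7 CPM in control at 24 h. Its DMF libraries were highest at 48 h and its controls lowest, a difference of 1.72 ± 0.13 (adjusted p = 3.8e-08).

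Among genes of the interferon response, a fall that faded was the most frequent class. Of 38 tested, 16 had a positive difference and 5 a negative difference, against 20.6% and 17.6% of all genes tested. Among them 11 were falls that faded, where 5.04% of all genes tested were. The median effect was -0.173 at 48 h and -0.627 at 24 h, and the median level changed by 0.162 in DMF and by -0.2 in control. OAS3, a sensor of double-stranded RNA (GRCh38 chr12:112938352-112973249), had 8.0, 5.93 and 6.21 CPM in DMF and 6.13, 6.77 and 7.62 CPM in control at 48 h, and 1.99, 3.39 and 2.88 CPM in DMF and 7.48, 7.62 and 6.87 CPM in control at 24 h. The DMF level rose by 1.17 ± 0.16 and the control level did not change by the test (-0.09, adjusted p = 0.554), and the treatments overlapped at 48 h and not at 24 h. MX1, an antiviral GTPase, had a fall that faded, with a change between the times of -0.41 in DMF and -1.27 in control. EIF2AK2, the kinase PKR that is activated by double-stranded RNA, reversed, with 0.98 ± 0.07 at 48 h and -0.28 ± 0.07 at 24 h. IRF7, a factor of interferon induction, reversed in the other direction (-0.80 ± 0.12). IFIH1, the RNA sensor MDA5, had a fall that grew (-0.52 ± 0.18, adjusted p = 0.0325), and that call was lost without each of 6 libraries in turn (replicates 2 and 3 of DMF and replicate 3 of control at 48 h, replicate 3 of DMF and replicates 1 and 2 of control at 24 h), and its sign turned on TPM.

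Metallothioneins bind zinc and copper, and 3 of them had rises that faded. Of 7 genes of this list tested, 3 had a negative difference and 1 a positive difference, against 17.6% and 20.6% of all genes tested. MT1X had 37.7, 52.7 and 55 CPM in DMF and 26.6, 33 and 32.8 CPM in control at 48 h, and 29.5, 27.4 and 27.5 CPM in DMF and 8.56, 7.35 and 6.67 CPM in control at 24 h. The level was higher at 48 h in both treatments, by 0.87 ± 0.10 in DMF and 2.04 ± 0.11 in control, and the rise with DMF was 0.74 ± 0.10 at 48 h and 1.9 ± 0.11 at 24 h. The difference was -1.17 ± 0.15 (adjusted p = 1.06e-05). MT2A and MT1F had differences of -0.78 ± 0.13 and -1.03 ± 0.19. Near-identical family members make single metallothionein counts uncertain. MTF1, the zinc-sensing factor that drives them, had the positive difference (0.72 ± 0.14).

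Immediate early genes include the AP-1 factors. Of 29 tested, 12 were higher at 48 h than at 24 h in DMF and 20 in control, against 21.8% and 32.4% of all genes tested. The difference was negative for 11 and positive for 5, against 17.6% and 20.6% of all genes tested. On TPM 4 were lower and 7 higher. ZFP36, which promotes the decay of cytokine messenger RNA, had 143, 136 and 145 CPM in DMF and 234, 229 and 231 CPM in control at 48 h, and 124, 120.4 and 113 CPM in DMF and 118, 115 and 103 CPM in control at 24 h. Its controls of 48 h stood above all other libraries, and the difference was -0.80 ± 0.08 (adjusted p = 6.96e-07). JUNB, an AP-1 subunit, had a fall that grew (-0.49 ± 0.08), and in BTG2, an anti-proliferative gene, and DUSP2, a phosphatase of MAP kinases, a rise faded (-0.61 ± 0.07 and -0.56 ± 0.08). Of 32 apoptosis regulators, 11 had a negative difference and 5 a positive difference, against 17.6% and 20.6% of all genes tested, and on TPM 6 were lower and 13 higher. BCL2L1, the survival factor BCL-XL, had a fall of -1.44 ± 0.05 at 48 h and -0.91 ± 0.05 at 24 h, and BIRC7, an inhibitor of apoptosis, a rise that faded (-1.06 ± 0.23).

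Genes of the cell cycle had smaller medians. DNA replication genes had 15 of 45 members with a negative difference and 5 with a positive difference, against 17.6% and 20.6% of all genes tested. Their median effect was -0.339 at 48 h and -0.172 at 24 h. On TPM the direction turned, with 3 lower and 24 higher. CDT1, which licenses replication origins, had a difference of -0.80 ± 0.09. Of 46 mitosis genes 15 had a negative difference and 6 a positive difference, which on TPM became 5 and 21. Of these genes, 40 were lower with DMF at 48 h and 41 at 24 h, against 29.6% and 27.8% of all genes tested. MKI67, the proliferation marker Ki-67, had 578, 629 and 598 CPM in DMF and 655, 537 and 682 CPM in control at 48 h, and 438, 615 and 546 CPM in DMF and 812, 828 and 822 CPM in control at 24 h. The treatments overlapped at 48 h and did not at 24 h, so the fall faded (0.57 ± 0.13, adjusted p = 0.00215). CDKN1A, the inhibitor p21, had a rise at both times that was smaller at 48 h (-0.38 ± 0.08). BBC3, the pro-apoptotic PUMA, had a fall that grew, -1.73 ± 0.11 at 48 h and -0.52 ± 0.12 at 24 h, and TIGAR, a p53 target that lowers glycolysis, a rise that grew (1.23 ± 0.09).

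In mitochondrial metabolism, 16 of 37 genes of oxidative phosphorylation had a negative difference and 2 a positive difference, at a median of -0.174. On TPM 4 were lower and 14 higher, and with the length trend removed 7 were lower and 5 higher. UQCRH, a subunit of complex III, reversed to a fall (-0.58 ± 0.08). Of 22 genes of the TCA cycle, 5 had a negative difference and 3 a positive difference, near the 17.6% and 20.6% of all genes tested, and on TPM 1 was lower and 15 higher. IDH2, mitochondrial isocitrate dehydrogenase, had 49, 49.9 and 51.9 CPM in DMF and 141, 163 and 149 CPM in control at 48 h, and 44.8, 41 and 41.9 CPM in DMF and 56.3, 58.8 and 56.5 CPM in control at 24 h, with controls of 48 h far above the other libraries and a difference of -1.15 ± 0.08 (adjusted p = 3.27e-08).

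Some of the largest differences lay outside these groups. MAP1A, a microtubule-associated protein (GRCh38 chr15:43510958-43531620), had 13, 19.1 and 19.4 CPM in DMF and 0.356, 0.348 and 0.714 CPM in control at 48 h, and 10.2, 13 and 10.6 CPM in DMF and 1.41, 1.27 and 1.32 CPM in control at 24 h. DMF libraries were far above the controls at both times, and the difference of 2.16 ± 0.31 (adjusted p = 2.85e-05) had parts from both, 0.71 in DMF and -1.45 in control. NOXO1, an organizer of NADPH oxidase, had a rise of 2.03 ± 0.15 at 48 h and an effect of 0.13 ± 0.10 at 24 h that was not called. TXK, a Tec-family kinase, and LEF1, a factor of the Wnt pathway, were higher at 48 h in DMF and lower in control, with differences of 1.7 ± 0.21 and 1.18 ± 0.07.

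ADD2, beta-adducin of the membrane skeleton (GRCh38 chr2:70607618-70768225), had 1.0, 0.169 and 0.445 CPM in DMF and 7.24, 7.28 and 7.91 CPM in control at 48 h, and 0.432, 0.347 and 0.518 CPM in DMF and 1.77, 1.72 and 1.84 CPM in control at 24 h. The controls of 48 h stood apart from the rest, DMF libraries of the 2 times overlapped, and the value of replicate 1 of DMF at 48 h rests on 3 counts. The difference was -2.43 ± 0.41 (adjusted p = 0.000156). COLCA2, whose protein is linked to tuft cell identity as a co-activator of POU2F3, had a difference of -2.0 ± 0.36 with DMF at 0.334, 0.449 and 0.594 CPM and control at 14.8, 15.9 and 17.3 CPM at 48 h. WNT10A, a Wnt ligand, had 111, 98.7 and 106 CPM in DMF and 327, 349 and 348 CPM in control at 48 h, and 78, 83.2 and 81.5 CPM in DMF and 111, 111 and 99.5 CPM in control at 24 h, with a difference of -1.31 ± 0.08 (adjusted p = 3.26e-09). APOL6, an apolipoprotein L, had a difference of 2.04 ± 0.27. It was the largest of the faded falls with at least 5 CPM in the highest group that stayed called without replicate 1 of DMF at 48 h. APOL6 had 3.67, 2.08 and 1.43 CPM in DMF and 1.71, 1.9 and 1.86 CPM in control at 48 h, against 1.64, 2.08 and 1.75 CPM and 7.02, 7.98 and 6.96 CPM at 24 h. Its treatments overlapped at 48 h and lay apart at 24 h. SAT2, a spermidine/spermine acetyltransferase family member, had a rise that faded, 0.38 ± 0.12 at 48 h and 1.68 ± 0.13 at 24 h, with a control level that rose by 1.42 ± 0.14.

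**Figure D4:**
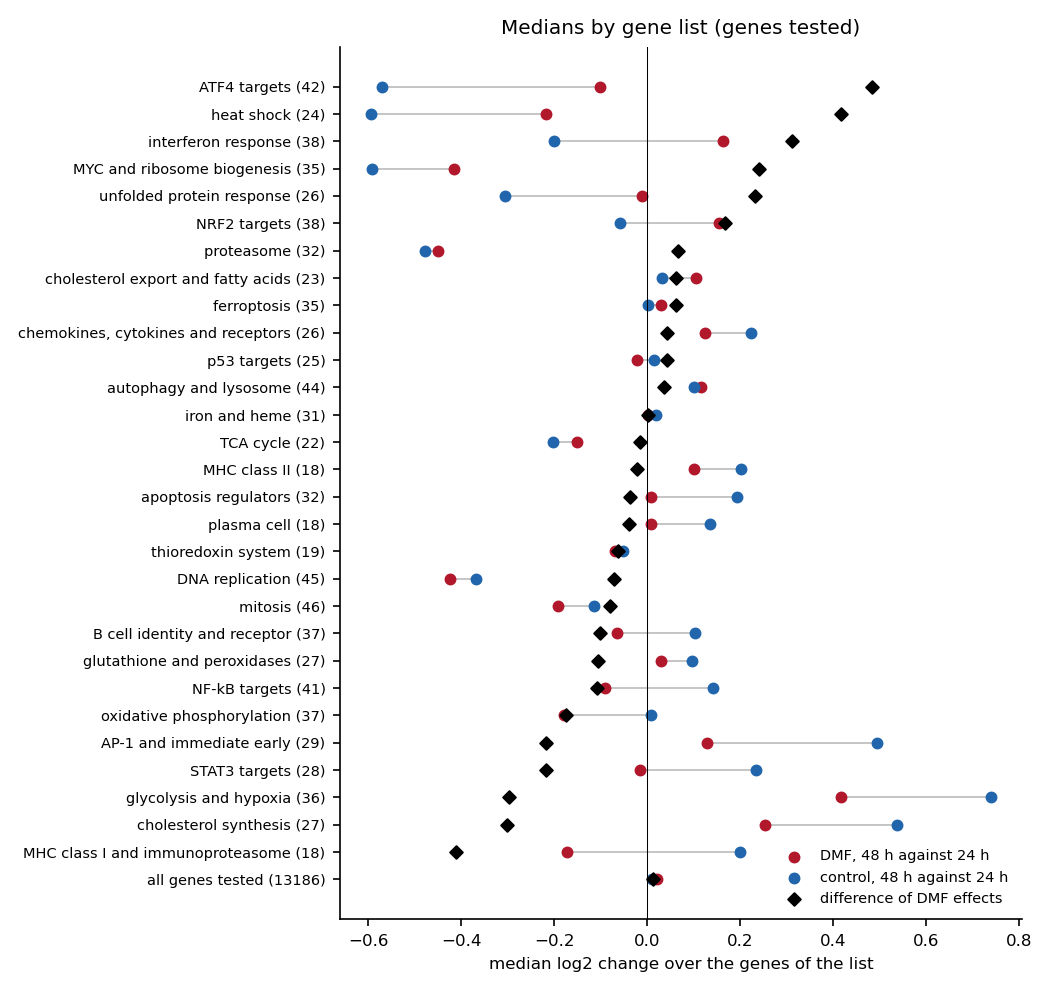
Median log2 change over the tested genes of 29 gene lists and of all genes: from 24 h to 48 h in DMF (red) and control (blue), and the difference of DMF effects (black diamonds), which ranks the lists. ATF4 targets lead with a median difference of 0.484, and MHC class I genes are last of the lists drawn, at -0.412.

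The order of lists in the plot of medians is that of counts scaled by TMM. The metallothionein list, with a median of -0.779 over 7 genes that include MTF1, is not drawn. The medians of ATF4, heat shock, unfolded protein response, NRF2, interferon and ribosome biogenesis genes were positive, and those of glycolysis, MHC class I, metallothionein and ribosomal protein genes negative, under TMM and upper quartile scaling, on TPM and with length and GC trends removed. On TPM the median of all genes was 0.212 (log2), and there the medians of NF-kB targets (0.15), STAT3 targets (0.112) and cholesterol synthesis genes (0.0015) were above zero. Relative to the median of all genes they were -0.0623, -0.1 and -0.21. The medians of AP-1 (0.082), oxidative phosphorylation (0.107), B cell (0.123), mitosis (0.195), apoptosis (0.209), DNA replication (0.238) and TCA cycle genes (0.255) were above zero on TPM as well. Relative to all genes they lay between -0.13 for AP-1 genes and 0.0429 for TCA cycle genes.

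The times before 24 h were not used to form the classes. At 6 h, 44.7% of the growing rises were already higher with DMF and 16% lower, against 24.4% and 24% of all genes tested. Of the growing falls, 17.1% were higher and 35.6% lower at 6 h. ATF4 targets had a median DMF effect of 0.693 at 6 h, 0.265 at 12 h, -0.532 at 24 h and 0.145 at 48 h, and 40 of 42 were higher at 6 h, where 23.8% of the genes in that fit were. Their control levels were higher at 24 h than at 6 h for 32 and lower for 2, and at 48 h higher for 13 and lower for 22. In that fit 28.8% of genes were higher and 27.7% lower in control at 24 h than at 6 h, and 38.2% and 36.8% at 48 h. Heat shock genes had medians of 0.517, 0.497, 0.175 and 0.651 and NRF2 targets 0.773, 0.805, 0.652 and 0.969 at 6, 12, 24 and 48 h. Interferon genes went lowest at 12 h (-1.05) and were least affected at 48 h (-0.173).

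**Figure D5:**
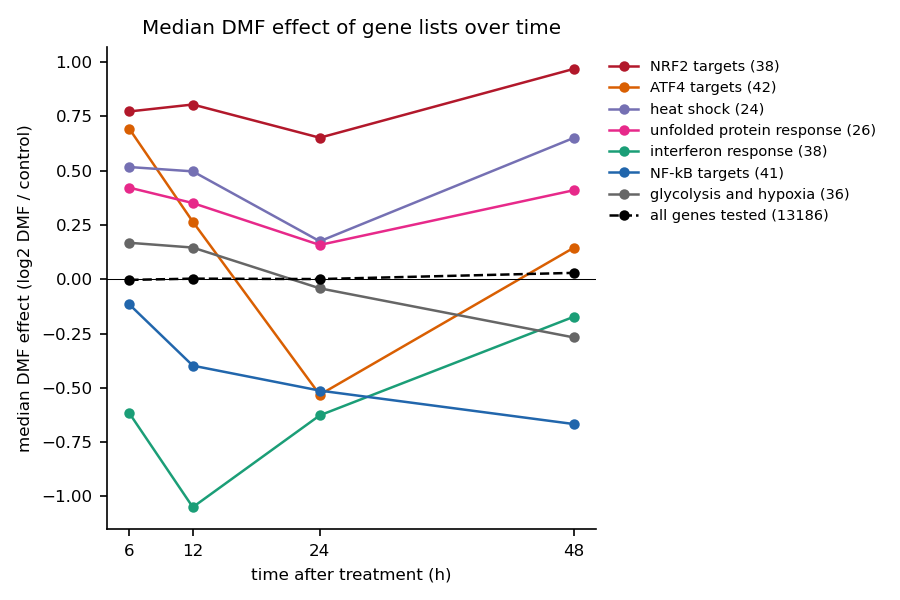
Median DMF effect (vertical axis, log2 of DMF over control) of 7 gene lists and of all genes tested at 6, 12, 24 and 48 h (horizontal axis, h), with the values at 6 and 12 h taken from a fit of 22 libraries. The lines of ATF4, heat shock, unfolded protein response and NRF2 genes have their lowest point at 24 h, and the line of NF-kB targets goes down throughout.

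The time course of list medians leaves out the replicate 3 libraries of 12 h, whose weighted transcript lengths were 2121 bases in DMF and 1902 bases in control. Glycolytic genes had a median change from 6 h of -0.0192 at 24 h and 0.634 at 48 h in DMF, and of 0.333 and 1.21 in control.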

How the data were processed

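RNA of HBL-1 cells was sequenced in 24 libraries, of which the 12 of 48 h and 24 h enter the comparison. The deposited tables hold, per the file headers, 1 expected count, TPM and FPKM per gene with transcript and effective lengths, as RSEM writes them. HISAT2, HISAT, RSEM and the build GRCh38.p12 are named without versions or roles in the submitters' processing notes. The annotation and strand setting are not given in the sources used here, so reads of overlapping and antisense genes may be mixed. The authors' FPKM values were not used for any result, and the deposited TPM values served as an alternative.

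Expected counts were rounded to whole numbers and filtered by group (filterByExpr), which left 13186 of 21831 genes, and scaled by TMM. Each of the 4 groups had its own mean in a single edgeR 4.0.16 quasi-likelihood fit (R 4.3.3) with 8 residual degrees of freedom, and Benjamini-Hochberg adjustment ran over all genes tested, with a call at an adjusted p under 0.05. The standard error of a change was taken as its size over the root of the F statistic. CPM values are counts scaled to library size after TMM. Alternatives used DESeq2 1.42.0, limma 3.58.1, other scalings, filters and sets of libraries. On simulated counts for the difference, only 200 of 12762 genes were changed. Of these, 71.6% of 1.5-fold, 98.5% of 2-fold and 100% of 4-fold changes were recovered, with 15 false calls. In the data 5030 of 13186 genes were called, and the share of false calls among them was not tested.

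The comparison, gene lists and named genes were chosen with earlier results of these data known. Outside a fixed panel, named genes had at least 5 CPM in the highest group. They also had to stay called without replicate 1 of DMF at 48 h. Among such genes, the 6 largest differences of each class, the 10 smallest p and up to 5 of the smallest p in each list were named. Replicate pairs of a group differed by more than sampling noise, with chi-square values of 1.81 to 19.7 per degree of freedom, so each library was counted once. At the depth of replicate 1 of DMF at 48 h, 3 counts are 1.05 CPM before TMM, against 0.0807 to 0.105 CPM in the other 11 libraries, for counting error only. Gene positions are those of GENCODE v29 on GRCh38. Some genes that the naming rule picks are not reported here.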

Additional observations from a re-analysis of the deposited data

Results flagged for a closer look

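The effect of DMF at 48 h differed from that at 24 h by the test of the difference itself for 2713 genes with a positive and 2317 with a negative difference. By the definition of the class, each gene named for the largest reversals was called in opposite directions at the 2 times and in the difference. SLC6A9 (2.01), CHAC1 (1.89), SLC7A11 (1.77), FAM111B (1.72), SDK2 (1.58) and PSPH (1.47) were higher with DMF at 48 h and lower at 24 h, on the log2 scale. ALDOC (-1.44), RRAS (-1.41), LOC554206 (-1.36), HSD17B8 (-1.34), NUMBL (-1.25) and CDKN2D (-1.24) were lower with DMF at 48 h and higher at 24 h. FAM111B, a trypsin-like protease, had 3.33, 3.17 and 2.44 CPM in DMF and 1.82, 1.46 and 1.57 CPM in control at 48 h, and 5.85, 4.8 and 4.54 CPM in DMF and 9.19, 8.74 and 10.3 CPM in control at 24 h, with DMF and control apart at both times. RRAS, a small GTPase related to RAS, had 4.0, 5.14 and 5.46 CPM in DMF and 7.38, 8.45 and 7.19 CPM in control at 48 h, and 4.55, 4.51 and 3.83 CPM in DMF and 2.36, 2.36 and 2.42 CPM in control at 24 h, and its 3 controls of 48 h stood above all other libraries. Among these 12 genes the control level changed more than the DMF level in each. The same held for 89.5% of all reversals to a rise and 88.3% of all reversals to a fall, so these genes differ little from their classes. The DMF level of PSPH, RRAS, HSD17B8 and CDKN2D did not change by the test. Groups of 3 libraries were not searched for single libraries that stand apart. No explanation of these reversals was tested.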

How the results depend on the processing

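The fit on all 24 libraries, whose common dispersion was 0.0521 against 0.0029 with 12, called 222 genes higher and 197 lower for the difference, 1785 and 1680 for DMF at 48 h, 1048 and 885 for DMF at 24 h, 399 and 521 for DMF between the times and 1650 and 1646 for control between the times. There, 418 of the 5030 calls remained, with 184 growing rises, 157 growing falls, 29 and 20 faded rises and falls, and 15 and 10 reversals to a rise and a fall. With 22 libraries, without the replicates 3 of 12 h, 2890 genes were higher and 2715 lower. On log2(TPM + 1) and log2(TPM + 0.1), limma called 5283 and 5215 genes higher and 862 and 828 lower for the difference, 2135 and 2099 lower for DMF at 48 h, 1392 and 1387 lower for DMF between the times, and 2611 and 2567 higher for control between the times. The medians of all genes were then 0.212 and 0.263. Differences took the opposite sign for IFIH1 (0.149 and 0.0664), DLST (0.0543 and 0.0555) and SUCLG2 (0.0647 and 0.0679) with pseudocounts of 1 and 0.1, and for OSGIN1 (0.624) with 1. The cause was not tested.

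DESeq2 size factors gave 2515 higher and 2469 lower, upper quartile scaling 2181 and 2821, no filter 2669 and 2307, the DESeq2 Wald test 2318 and 2241, limma voom 2789 and 2304, and length and GC trends removed 2846 and 2388. Leaving out 1 library at a time gave 2237 to 2893 higher and 1872 to 2380 lower for the difference, and no such count moved by over 1.5 times. Same-numbered libraries of 24 h and 48 h did not deviate together, with correlations of -0.213 to 0.036 over 18 pairs. No pairing by number was seen at these times, but deviations from means of 3 libraries cannot exclude one. At 12 h, outside the comparison, both replicate 3 libraries had short weighted transcript lengths, 2121 bases in DMF and 1902 bases in control. With the replicate number as a block, 2509 genes were higher and 2157 lower. Of 177 named genes called, 119 lost their call with 24 libraries and 1 with the block. The 2870751 counts of replicate 1 of DMF at 48 h limit genes of low level, and 4736 of the calls held without it.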
